A study of Mus musculus with 10 samples.

Results

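A set of 10 T-box genes with known roles in mesoderm and heart carried H3K27me3 in fetal liver long-term hematopoietic stem cells (LT-HSCs). The genes were chosen by name, with earlier results of these data known. They are T (Brachyury, named Tbxt in newer annotation), Eomes, Tbx1, Tbx2, Tbx3, Tbx4, Tbx5, Tbx15, Tbx18 and Tbx20. These are 10 of the 21938 protein-coding genes on the main chromosomes. CUT&Tag, in which an antibody directs a transposase to a chromatin protein so that sequenced fragments mark where it lies, was done for H3K27me3 with the antibody C36B11 on sorted LSK CD48-CD150+ cells of mouse fetal liver at E14.5. There were 3 libraries from IκBα WT and 3 from IκBα KO embryos, sorted from litters of IκBα heterozygous parents. The KO carries a germline deletion in every cell of the embryo, some matings also carried the Gfi1:tomato reporter, and no treatment was given. Which libraries carried the reporter is not stated in the sources used here. The paper's figure legend for this assay counts more embryos than libraries, so some libraries may hold several embryos. The legend also counts fewer independent experiments than libraries per genotype, while the reporting summary calls the 3 replicates independent. IκBα itself was profiled in a further 4 samples, not analysed here.

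T-box factors share a DNA-binding domain named after T, and act as activators or repressors in the order in which mesoderm forms, spreads and becomes heart, limb or body wall. H3K27me3 is laid down by Polycomb repressive complex PRC2 and typically covers the promoters of developmental regulators in cells of other lineages, often as broad domains over CpG-rich sequence. Most of these genes are known from lineages other than blood, although Eomes also acts in lymphocytes.

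Peaks had been called in each library separately, and values below are in the order WT replicates 1, 2 and 3 and then KO replicates 1, 2 and 3. The libraries held 4160, 6013, 1047, 4904, 5157 and 2325 peaks, so that replicate 3, sequenced with 50 bp reads instead of 75 bp in both genotypes, was the lowest in each genotype. The median over peaks of the highest fragment coverage was 6 in WT replicate 3 and 9 or 10 elsewhere, and read totals were not used. Markers were read for the cell type: none of 10 LT-HSC genes (Kit and Runx1 among them), 4 hepatocyte, 3 erythroid, 3 macrophage or 3 housekeeping genes had a promoter peak in any library, against 2 of 3 B cell genes (Pax5 and Ebf1, in all 6) and 1 of 3 endothelial genes (Kdr, in 1 WT library). Over all coding genes 15.8% had a promoter peak in any library. Hepatocyte and macrophage genes lacked peaks just as LT-HSC genes did, so these counts do not identify the cell type. The mark does not measure the deletion, so the genotype labels were not checked by these data.

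Promoter sequence from RefSeq (GRCm38.p6) was available for 6 members: T, Eomes, Tbx1, Tbx4, Tbx18 and Tbx20. The set of promoter windows used here holds none for Tbx2, Tbx3, Tbx5 and Tbx15. Of windows of 300 bases around a start site (250 before, 50 after), those of T held 17 CpG, of Tbx20 26, of the pair at Tbx1 26 and 16, of Tbx18 15, of Eomes 10 and of Tbx4 8. The median was 14 over the windows of all coding genes, 16 over genes with a promoter peak and 13 over genes with none, so the members lay on both sides of it. Both ends of the family are shown as the 250 bases before the start, 5′ to 3′ on the strand of the gene, with each CpG in capitals. T and Tbx20 were covered by H3K27me3 here, and the T-box genes Mga, a broadly expressed partner of MAX, and Tbx22, which acts in the palate, had no promoter peak in any library.
T (chr17:8434173-8434422, + strand): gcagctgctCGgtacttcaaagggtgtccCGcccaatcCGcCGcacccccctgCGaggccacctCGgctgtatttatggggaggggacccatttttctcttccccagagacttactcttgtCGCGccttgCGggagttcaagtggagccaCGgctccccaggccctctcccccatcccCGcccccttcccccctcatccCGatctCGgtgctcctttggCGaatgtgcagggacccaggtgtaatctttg
Tbx20 (chr9:24774304-24774553, - strand): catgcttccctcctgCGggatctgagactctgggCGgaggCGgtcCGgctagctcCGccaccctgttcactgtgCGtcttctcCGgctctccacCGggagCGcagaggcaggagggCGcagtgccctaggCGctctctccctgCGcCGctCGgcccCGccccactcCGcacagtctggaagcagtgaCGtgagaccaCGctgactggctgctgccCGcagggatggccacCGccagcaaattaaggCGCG
Mga (chr2:119896978-119897227, + strand): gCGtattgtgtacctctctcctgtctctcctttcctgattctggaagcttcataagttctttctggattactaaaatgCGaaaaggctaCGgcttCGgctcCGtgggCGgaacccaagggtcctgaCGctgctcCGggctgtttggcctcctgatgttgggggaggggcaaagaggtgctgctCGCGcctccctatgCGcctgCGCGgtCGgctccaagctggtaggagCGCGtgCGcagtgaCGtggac
Tbx22 (chrX:107667714-107667963, + strand): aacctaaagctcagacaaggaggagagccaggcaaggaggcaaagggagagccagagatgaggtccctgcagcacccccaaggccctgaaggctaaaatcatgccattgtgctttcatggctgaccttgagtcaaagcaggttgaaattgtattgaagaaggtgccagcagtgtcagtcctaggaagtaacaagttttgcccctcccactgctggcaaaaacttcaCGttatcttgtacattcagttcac
The windows of 300 bases at Mga held 24 CpG and at this start of Tbx22 1 CpG. The other T-box genes without a peak were Tbx6 (7 CpG), Tbx10 (4), Tbx19 (7) and Tbx22 (1, 2 and 1). They lay below the windows of the 6 members with sequence (8 to 26), and Mga, with no peak, lay among them. The lowest member window, of 8 CpG at Tbx4, begins at chr11:85896515, inside the gene, whose outermost start site is at chr11:85886422. The gap of 7 against 8 thus rests on an internal start site, and Tbx2, Tbx3, Tbx5 and Tbx15 have no window here. Of the T-box genes outside the set that had a peak, Tbx21 held 21 and Tbr1 7. The half-site that T itself binds, AGGTGTGA, on either strand, was in none of the 7 windows of the 6 members and in 1.28% of all 32851 windows, and its core GTGTGA, which the longer motif contains, was in none of the 7 and in 14.49% of all.

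Each of the 10 genes had a promoter peak in at least 5 of the 6 libraries. A promoter was counted as called where at least 1 base of a peak lay between 5 kb upstream and 100 bp downstream of any start site. In the 6 libraries 10, 10, 8, 10, 10 and 10 members were called, while the share of all coding genes was 10.6%, 12.9%, 3.46%, 12.9%, 12.2% and 8.06%. In all 6 libraries 8 members were called, against 2.65% of coding genes, and 10 in any library, against 15.8%. T and Tbx5 were the others, and both lacked a call in WT replicate 3 alone, the library with the fewest peaks. Thus 8 members were called in all 3 WT libraries (3.01% of coding genes) and 10 in all 3 KO libraries (7.12%), while in replicates 1 and 2 of both genotypes 10 were called (8.53%). The missing calls of T and Tbx5 and the low peak number fell in the same library, while WT replicates 1 and 2 had both. When the same number of top peaks, 1047, was taken from every library, 6 members were called in all 3 WT libraries (1.26% of coding genes) and 5 in all 3 KO libraries (1.92%), so the order of the genotypes turned.

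Coverage, like the calls, was high relative to the genome, in a set chosen with earlier results of these data known. The members' windows (5 kb upstream of the outermost start site to the gene end) sum to 379.876 kb, and peaks covered 33.4%, 39.1%, 6.09%, 37.8%, 30.5% and 14.2% of them, against 1.29%, 1.85%, 0.157%, 1.63%, 1.56% and 0.612% of the windows of all coding genes. Replicate 3 was lowest in both genotypes for both quantities. In total 99 peaks lay over the members, and the place of highest coverage was in an intron for 47, upstream for 30, in an exon for 15 and downstream for 7. It was within 1 kb of a start site for 45 peaks, at a median distance of 1283 bp.

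**Figure D1:**
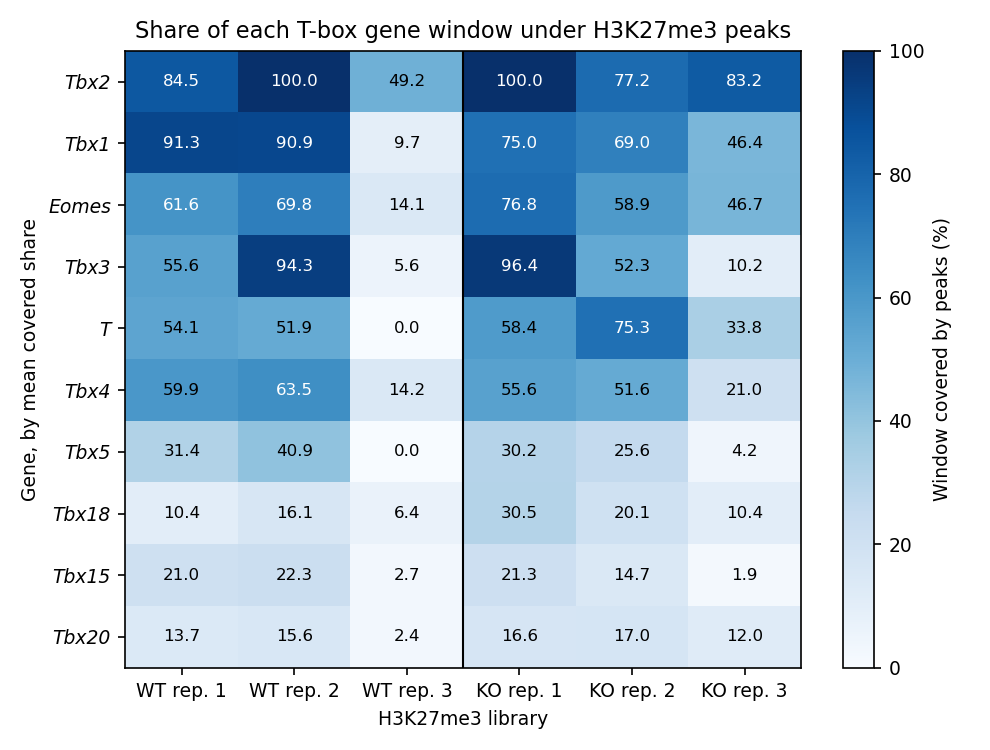
Share of each T-box gene window covered by H3K27me3 peaks (%), with genes in rows ordered by their mean and libraries in columns. Tbx2 has the highest mean (82.4%) and Tbx20 the lowest (12.9%), and the third column, WT replicate 3, is the palest at each gene but Tbx15, with 0 at T and Tbx5.

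T, Eomes and Tbx1 act early. T drives formation of posterior mesoderm and the notochord, and its window was covered to 54.1%, 51.9%, 0%, 58.4%, 75.3% and 33.8%. The peaks spanned the start site, within a region of 10.1 kb (chr17:8426926-8437061, GRCm38) that reached from upstream into the gene, and KO replicate 2 had a second peak over the gene's 3′ part. Eomes, which acts in the primitive streak and trophoblast, was covered to 61.6%, 69.8%, 14.1%, 76.8%, 58.9% and 46.7%. It had a pair of separate regions: chr9:118474557-118481476 over the start site in all 6 libraries, and chr9:118482702-118490148 at the 3′ end in 5, where it overlapped the window of Gm33460. WT replicate 3 lacked the second one, and in KO replicate 2 the start-site region was split so that the outermost start site lay in a gap. Tbx1, a regulator of the pharyngeal arches and cardiac outflow tract, was covered to 91.3%, 90.9%, 9.75%, 75.0%, 69.0% and 46.4%. Its region (chr16:18579284-18594389, 15.1 kb) spanned the whole gene, with a single peak over it in WT replicates 1 and 2 and KO replicate 1, while in WT replicate 3 it was 1.43 kb around the outermost start site.

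Tbx2 and Tbx3 are repressors that keep the atrioventricular canal and conduction system from becoming chamber muscle. Tbx2 was the most covered member, at 84.5%, 100%, 49.2%, 100%, 77.2% and 83.2% of its window (chr11:85822761-85847644, 24.9 kb), and it was the only one with more than 40% in every library. This region also reached the windows of Bcas3, 2610027K06Rik and Gm11444, and the peaks do not say to which gene they belong. Tbx3 varied more, at 55.6%, 94.3%, 5.60%, 96.4%, 52.3% and 10.2%. Its region was the widest of the 10, at 44.0 kb (chr5:119648404-119692400), and it also lies over Gm16064 and the antisense genes Tbx3os1 and Tbx3os2. Inside the gene window, the replicate 3 libraries each had a single peak, of 1.07 kb in WT and 1.94 kb in KO, both on the start site.

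Tbx4 and Tbx5 specify hind limb and lung, and forelimb and heart, respectively, and Tbx2 with Tbx4 and Tbx3 with Tbx5 form neighbouring pairs. Tbx4 was covered to 59.9%, 63.5%, 14.2%, 55.6%, 51.6% and 20.99% (chr11:85879163-85903426). Tbx5 was covered to 31.4%, 40.9%, 0%, 30.2%, 25.6% and 4.2%, mostly around the start of a longer gene (chr5:119816896-119849835). The 39.5 kb between Tbx2 and Tbx4 was covered to 10.03%, 20.2%, 1.74%, 10.7%, 9.06% and 1.78%. The 143 kb between Tbx3 and Tbx5 was covered to 14.9%, 23.1%, 0%, 23.3%, 28.5% and 3.78%, in 5, 7, 0, 8, 9 and 2 peaks. The Tbx2 and Tbx4 start sites are 53.9 kb apart and those of Tbx3 and Tbx5 162 kb, and in none of the libraries did a single peak join a pair.

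Tbx15, Tbx18 and Tbx20 had the smallest mean covered shares together with Tbx5. Tbx15, a regulator of skin and skeletal development, was covered to 21.01%, 22.3%, 2.70%, 21.3%, 14.7% and 1.94% of 118.9 kb, yet its region (chr3:99233842-99262618) was 28.8 kb wide, the third widest. The region overlaps the windows of Wars2 and Gm43120. Other gene windows are also met by the regions of Tbx1 (4930588K23Rik), Tbx5 (Gm43050), Tbx18 (D030062O11Rik) and Tbx20 (Gm29824), and those of T and Tbx4 meet none. Tbx18, which acts in the epicardium and sinus horns, was covered to 10.4%, 16.1%, 6.44%, 30.5%, 20.1% and 10.4% (chr9:87728389-87737214). Its outermost start site lay outside the peaks in WT replicates 1 and 2 and inside them in the other 4 libraries. Tbx20, needed for heart chamber growth, was covered to 13.7%, 15.6%, 2.41%, 16.6%, 17.0% and 12.02% (chr9:24768324-24784357), around the start of the gene.

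**Figure D2:**
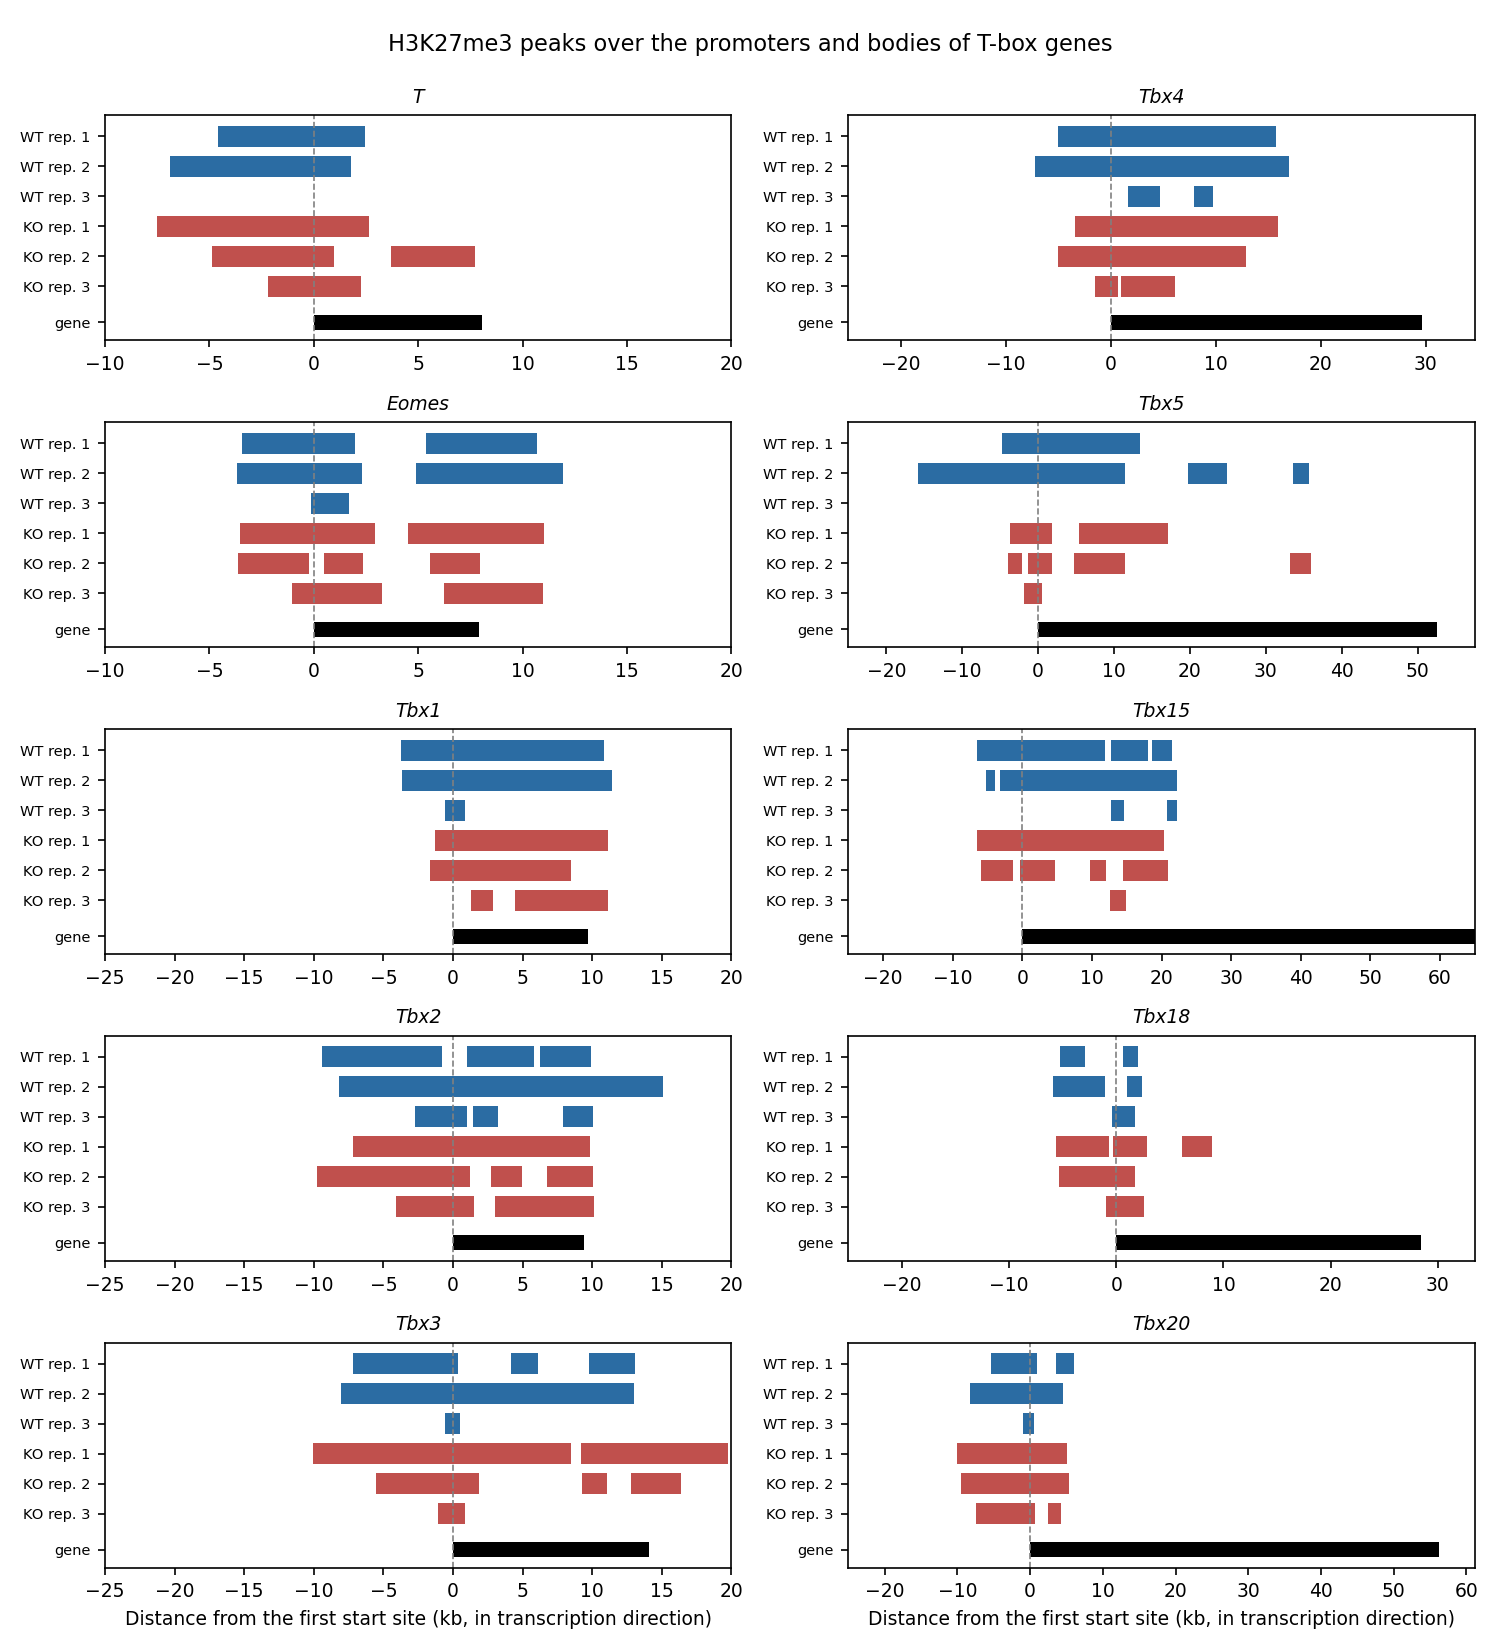
H3K27me3 peaks (bars, WT blue and KO red, one row per library) over each T-box gene, with distance from the outermost start site in kb on the x axis and the gene as a black bar. Most peaks lie near the start site, with exceptions such as those over 30 kb away at Tbx5, and in the replicate 3 libraries the Tbx3 window holds single peaks of 1.07 and 1.94 kb; T and Tbx5 have no bar in WT replicate 3.

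The order of the members by mean covered share was Tbx2 (82.4%), Tbx1 (63.7%), Eomes (54.6%), Tbx3 (52.4%), T (45.6%), Tbx4 (44.3%), Tbx5 (22.0%), Tbx18 (15.7%), Tbx15 (14.0%) and Tbx20 (12.9%). Of neighbours in this order, Tbx4 was above Tbx5 in 6 of 6 libraries and Tbx2 above Tbx1 in 5. The other neighbours kept their order in 3 or 4 of 6 libraries and so did not differ beyond the spread between libraries. A share also depends on the length of the window, from 12.9 kb at Eomes to 118.9 kb at Tbx15. By mean covered length the order was another, with Tbx15 (16.7 kb) first, then Tbx4 (15.4 kb), Tbx5 (12.7 kb) and Tbx2 (11.9 kb).

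A region is the union of overlapping peaks of the 6 libraries. For each gene the promoter region with the largest overlap with its window was taken as its main region. The median width of these 10 was 20.1 kb (6.92 to 44.0 kb). It was 9.88 kb over the 717 regions called in all 6 libraries and 4.26 kb over all 6950 regions. The 15 regions over the members include further ones of 2.69 to 7.45 kb at T, Eomes, Tbx5 and Tbx18, left out of this median. Not each main region was wide: those of Eomes, Tbx18 and T were wider than 25.2%, 40.6% and 51.6% of the 717. Of the 10, 5, those of Tbx2, Tbx3, Tbx4, Tbx5 and Tbx15, were above 20 kb, as were 15.6% of the 717. The strongest peak of each gene was placed among all peaks of its library by total signal, in which fragment coverage is added up along the peak. Such a rank is read within a library, and it also depends on how many peaks, 1047 to 6013, the library has. As the strongest peak of a gene is set against every single peak, a gene with several peaks is favoured by construction. The median member lay above 91.9%, 99.4%, 69.2%, 98.6%, 88.8% and 81.5% of the peaks of its library. Fragment coverage per covered base gave less contrast, with medians over members of 4.21, 4.41, 2.80, 4.91, 4.11 and 3.71, against 3.68, 3.71, 2.61, 3.96, 3.73 and 3.81 over all peaks. It was higher at members in 5 libraries and lower in KO replicate 3.

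Tbx4 ranked high in all 6 libraries, with its strongest peak above 99.5%, 99.6%, 94.4%, 99.2%, 99.7% and 90.1% of peaks. Tbx2 likewise lay above 91.7%, 99.8%, 98.4%, 98.9%, 97.4% and 95.4%, and in WT replicate 3 its strongest peak was number 17 of 1047. Others varied more. In KO replicate 3 the strongest peaks of Tbx3, Tbx5 and Tbx15 lay above only 10.2%, 26.1% and 13.4% of peaks, while those of Tbx1, Tbx2, Tbx4 and Tbx20 lay above 96.7%, 95.4%, 90.1% and 96.8%. In WT replicate 3 the lowest member was Tbx20 at 49.3%, Tbx3 and Tbx15 were at 66.5% and 68.7%, and T and Tbx5 had no peak. Tbx3, Tbx5 and Tbx15 were at 77.7% or more in the 4 libraries of replicates 1 and 2. The 50 bp reads and the low peak number move with the drop of these genes, and their part in it was not tested. Other members were lowest elsewhere, Tbx18 in WT replicate 1 (34.8%, against 69.7% and 76.2% in the WT and KO libraries of replicate 3) and Eomes in KO replicate 2 (54.1%, against 85.6% in KO replicate 3).

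**Figure D3:**
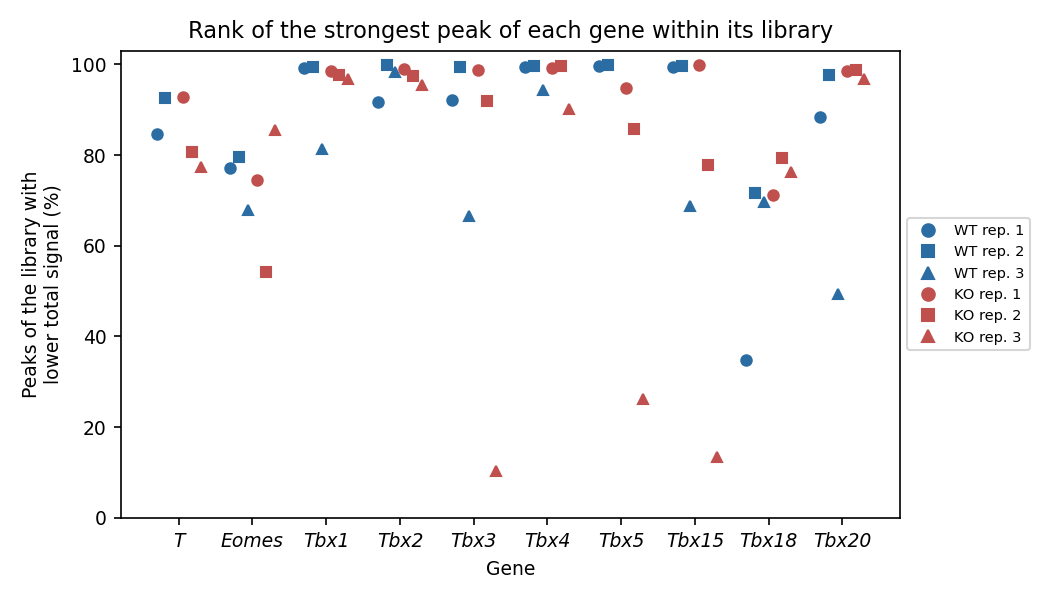
Percent of a library's peaks with lower total signal than the strongest peak of each gene, with one point per gene and library (colour, genotype; shape, replicate). Tbx2 and Tbx4 stay above 90% in all 6 libraries, whereas Tbx3, Tbx5 and Tbx15 drop to between 10.2% and 26.1% in KO replicate 3.

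The loss of IκBα was compared in 2 ways, by signal at regions called in all 6 libraries and by covered length of gene windows. In limma, 0 of 717 regions (0%) and 0 of 4128 gene windows (0%) passed an adjusted p of 0.05 with Benjamini-Hochberg adjustment. The median SE was 0.37 for regions and 1.15 for windows on the log2 scale. The window test could therefore detect little, and its count of 0 is uninformative. At an unadjusted p under 0.05 by limma there were 8 regions and 24 windows, and none of them was a member's in this fit. Both counts are below a share of 0.05 of the features tested. Same-numbered libraries varied together and this fit does not pair them, so its SE includes that shared variation. With a term for the replicate number (a replicate block) the SE at Tbx3 was 0.29 in place of 0.67. Still 0 regions and 0 windows passed. In a pool of sorted cells, fewer marked cells and less mark per cell cannot be told apart. The replicates are separate libraries, and the p-values measure the spread between them. Whether the libraries of a genotype come from separate experiments is not settled by the sources used here.

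Signal is the log2 of the total signal centred on the library's median, so that 0 is the median of the 717 regions. The regions of 8 members could be tested. The WT libraries had 1.59, 1.78 and 2.24 at Tbx2 and the KO libraries 1.44, 1.45 and 1.55, so each KO library was lower than any WT library. The difference in log2 signal was -0.39 ± 0.32 (SE, n = 3 and 3, adjusted p = 0.992 by limma), and -0.20 without WT replicate 3. At Tbx20 the WT libraries had 1.01, 0.81 and -0.12 and the KO libraries 1.15, 1.02 and 1.27, so each KO library was above the WT libraries. Its difference was 0.58 ± 0.37 (SE, n = 3 and 3, adjusted p = 0.992 by limma), and it was -0.08 when coverage per base was used in place of the total. Without WT replicate 3 it was 0.24, and the 3 same-numbered pairs differed by 0.14, 0.21 and 1.39. These were 2 of 8 member regions with groups that did not overlap, beside 6.69% of the 717 (48 regions), and with 8 members the count is small. Without centring the median of all 717 regions was 0.66, and Tbx2, at 0.28, lay -0.37 from that median, as in the centred comparison.

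Tbx15 had the largest difference, -0.91 ± 0.67 (SE, adjusted p = 0.992 by limma), from 2.04, 1.79 and 0.93 in WT and 1.89, 1.24 and -1.12 in KO. Without KO replicate 3 the value was 0.00051, and in replicates 1 and 2 only it was -0.34. KO was lower than WT in each of the 3 same-numbered pairs, with differences of -0.15, -0.55 and -2.04, and with a replicate block the difference was -0.91 ± 0.37 (SE, unadjusted p = 0.0339, adjusted p = 0.904 by limma). Tbx2, Tbx4 and Tbx20 also had the same sign in all 3 pairs, which makes 4 of 8 members, beside 26.2% of the 717 regions. The WT values at Tbx3 were 2.01, 2.20 and 0.05 and the KO values 2.31, 1.86 and -0.01, with the lowest library in each genotype being replicate 3 and a difference of -0.03 ± 0.67 (SE). At Tbx4 they were 1.60, 1.64 and 1.36, and 1.41, 1.51 and 0.78 (difference -0.30 ± 0.33, SE), and without KO replicate 3 the difference was -0.0539. Tbx1, Eomes and Tbx18 differed by 0.00 ± 0.38, 0.06 ± 0.36 and 0.13 ± 0.33 (SE), with overlapping groups. The adjusted p-values of the members by limma ran from 0.992 to 0.998.

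**Figure D4:**
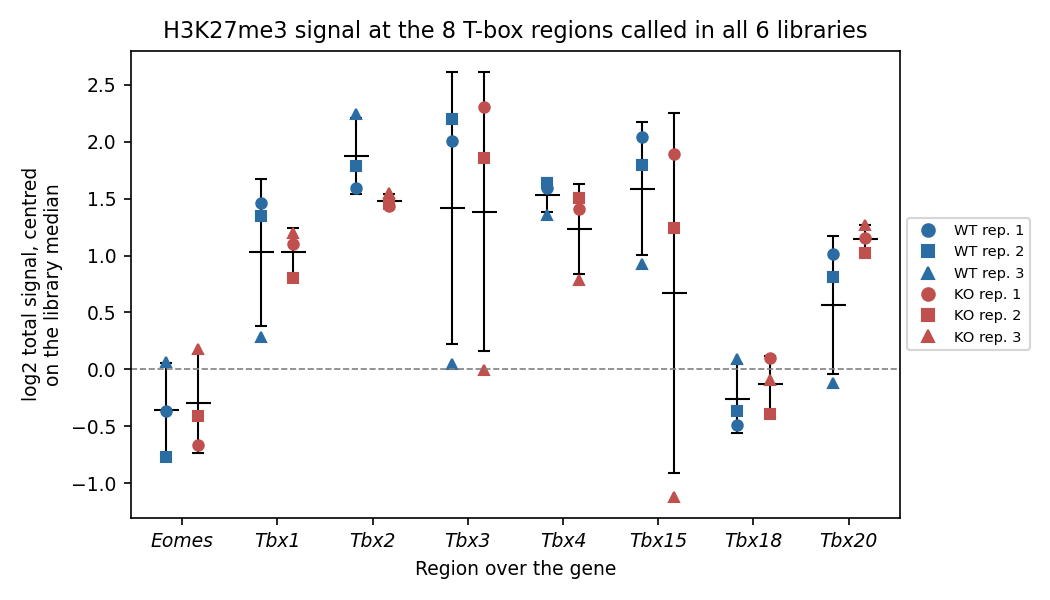
Log2 total signal, centred on each library's median, at the 8 T-box regions called in all 6 libraries (points, libraries; bars, mean ± SD, n = 3 per genotype). WT and KO overlap at 6 genes and do not at Tbx2 (KO lower) and Tbx20 (KO higher), and the replicate 3 points of Tbx3 and Tbx15 lie below the rest.

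Covered length added T and Tbx5, which were not called in all 6 libraries. T was covered over 4.62 ± 4.001 kb in WT and 7.30 ± 2.73 kb in KO (SD, n = 3 each), and the difference in log2(covered bp + 500) was 1.303 ± 1.20 (SE, adjusted p = 0.9999 by limma). Without WT replicate 3 it was 0.00595. Tbx5 was covered over 13.9 ± 12.3 kb and 11.497 ± 7.98 kb, with a log2 difference of 0.61 ± 1.42 (SE), and -1.19 without WT replicate 3. The difference was positive although the mean in kb was lower in KO, as also at Tbx1 and Tbx4. With 100 bp added in place of 500 it was 1.31 at Tbx5 and 2.05 at T. In both genes WT replicate 3 was the lowest library, at 0. The other 8 members had log2 differences of -0.32 at Tbx15, 0.04 at Tbx4, 0.20 at Tbx2 and Tbx3, 0.42 at Tbx1, 0.52 at Eomes, 0.77 at Tbx18 and 0.79 at Tbx20. Their standard errors ran from 0.99 to 1.22. The median of the 10 members was 0.47 and that of all 4128 windows 0.51.

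Other genes of the family and of the same tissues were counted for comparison. Of 7 other T-box genes, 2 had a promoter peak in any library, beside 15.8% of coding genes, and with 7 genes the count is small. Tbx21, the T-box factor of type 1 helper T cells (2 WT and 3 KO libraries), was covered to 14.53%, 27.02%, 0%, 14.55%, 22.7% and 22.1% of its window. Tbr1, a factor of cortical neurons (2 WT and 2 KO libraries), was covered to 53.2%, 49.1%, 11.3%, 76.5%, 22.5% and 41.4%. Tbx6, Tbx10, Tbx19, Tbx22 and Mga had none in their promoter or body. Tbx6 acts in presomitic mesoderm, so that not each T-box gene of mesoderm bore a peak.

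Of 20 mesoderm and heart genes that act with or after T-box factors, 15 had a promoter peak in some library (15.8% of coding genes), 13 in all 3 KO libraries (7.12%), 7 in all 3 WT libraries (3.01%) and 7 in all 6 (2.65%), and over all coding genes too the KO count was above the WT count. Those in all 6 were Gsc, Wnt3a, Nkx2-5, Gata4, Gata6, Hand1 and Smarcd3. Hand1, a partner in heart and extraembryonic mesoderm, was covered to 100%, 90.0%, 35.4%, 100%, 100% and 75.2%. Nkx2-5, which binds DNA together with Tbx5 and Tbx20 in heart muscle, was covered to 85.7%, 77.7%, 6.97%, 89.45%, 76.7% and 55.5%. Both are among the more covered genes of the list. Myocd, a coactivator of smooth and heart muscle genes, and Fgf10, a growth factor of limb, lung and second heart field, each called in 4 libraries, were covered to at most 4.49% and 2.58% in any library. No promoter peak was found at Mesp2 and Msgn1 of the presomitic mesoderm, at Mef2c, which blood cells also use, or at Nppa and Gja5, which are products of differentiated heart muscle. None of the 15 windows and 9 regions of this list that were tested, nor of the 2 windows and 1 region of the other T-box genes, passed the test in either direction. The median log2 difference in covered length was 0.61 and 0.72 for these lists, beside 0.51 over all windows.

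**Figure D5:**
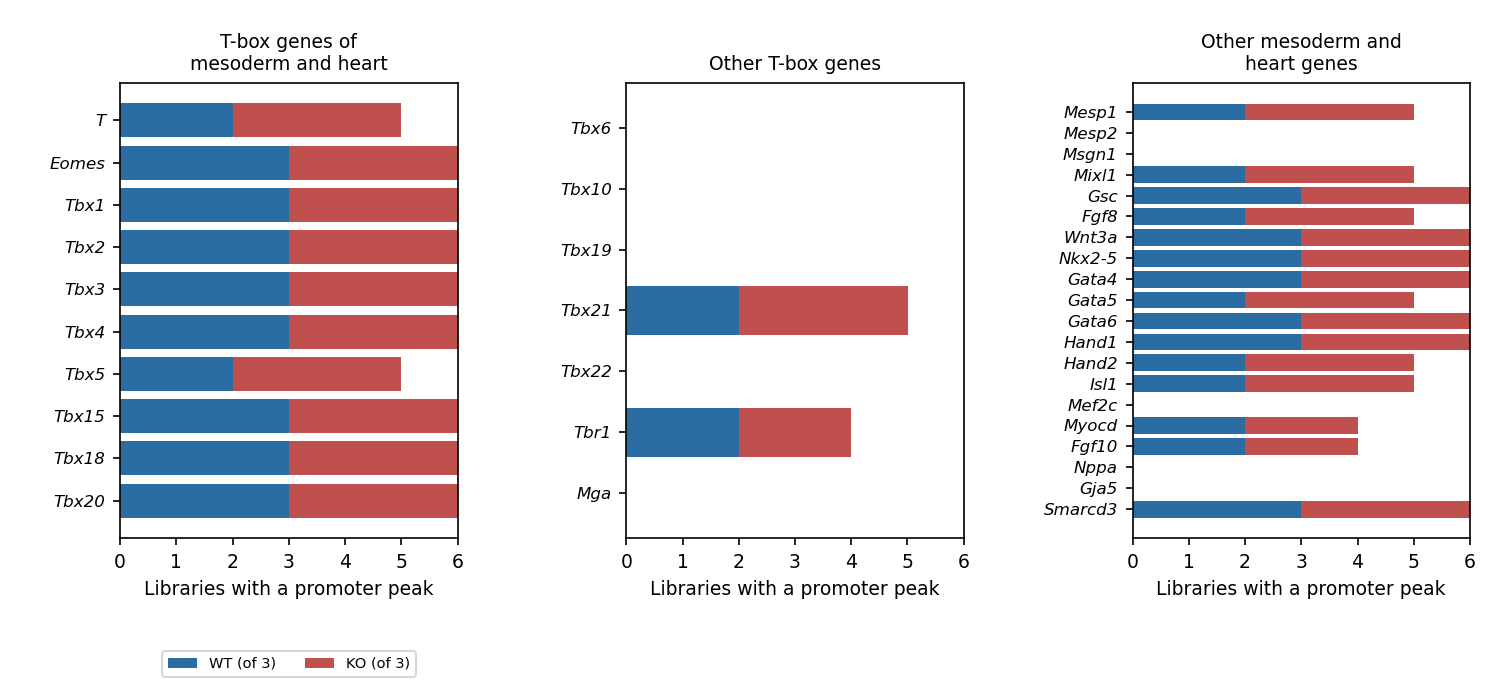
Number of libraries with a promoter peak for each gene (x axis, WT blue and KO red, up to 3 each), for the T-box genes of mesoderm and heart, other T-box genes, and other mesoderm and heart genes. All 10 genes of the first group are called in 5 or 6 libraries. Any call is found at 2 of 7 in the second and 15 of 20 in the third, beside 15.8% of coding genes.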

How the data were processed

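H3K27me3 CUT&Tag peaks of 6 libraries (3 IκBα WT, 3 IκBα KO; 75 bp reads in replicates 1 and 2, 50 bp in replicate 3) were read, with groups and replicate numbers from the sample labels. The authors trimmed reads (Trim Galore 0.6.6), aligned them to GRCm38 (Bowtie2 2.4.4), removed multi-mapped, low-quality and duplicate reads, and called peaks per library with SEACR 1.3 in stringent mode (top 0.5%, no IgG control) and removed blacklisted regions; the blacklist is not given in the sources used here. bedtools 2.30 and deepTools 3.5.1 are also in the submitters' processing notes. The deposited values are total signal and maximum signal per peak, without scaling to depth, so values of different libraries are not on a common scale. Read totals were not used.

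Coordinates are GRCm38, 1-based, and genes are from GENCODE M21. The 13 peaks on mitochondrial sequence were left out. Promoters spanned 5 kb upstream to 100 bp downstream of any start site. Overlapping peaks of the libraries were merged to 6950 regions. With limma 3.58.1 (R 4.3.3), log2 total signal, centred on the library median, was tested at 717 regions called in all 6 libraries, and log2(covered bp + 500) at 4128 gene windows with a peak in at least 3 libraries, two-sided, with Benjamini-Hochberg adjustment over all features and a threshold of 0.05. Both tests were run on simulated data with known changes. The simulated libraries varied independently, whereas same-numbered real libraries varied together. At the spread of the real libraries the window test did not recover the changes. The outcome of the region test is not reported here, and no conclusion is drawn from this run. With a median SE of 1.15, the count of 0 from the window test is uninformative. Tables were made with Python 3.11.15.

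All 10 members are named, companion genes are counted from lists (1 gene of the mesoderm and heart list is not reported here), and a gene that is no member is otherwise named only where its window meets a member region. Hand1, Nkx2-5, Tbx21 and Tbr1 were given values, as were Myocd and Fgf10, and the signs within same-numbered pairs were counted, after the data had been seen. The members and lists were chosen with earlier results of these data known. Same-numbered WT and KO libraries deviated together (r = 0.27, 0.31 and 0.47 over the 717 regions, which are not independent), so the numbers were taken to pair them by the limit of 0.1 set for each pair; WT replicate 2 and KO replicate 1 were as alike (0.268), and WT replicate 1 and KO replicate 2 less so (0.0981), so replicates 1 and 2 are not clearly told apart, and a replicate block was an alternative. Further alternatives changed the scaling, measure, filters, promoter, peak threshold, pseudocount and libraries.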

Additional observations from a re-analysis of the deposited data

How the results depend on the processing

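Over 14 alternatives for region signal and 12 for covered length no member passed the threshold (lowest adjusted p by limma 0.753), and 46 of 232 member values changed sign. With the replicate block 0 regions and 0 windows passed, as without it, and 25 and 86 had an unadjusted p under 0.05 by limma; the block changed no call. Over all fits these unadjusted counts ran from 0 to 119 for regions and from 0 to 293 for windows. With equal numbers of top peaks, which leaves fewer peaks by construction, 5 members, not 10, were called in all 3 KO libraries and 6, not 8, in all 3 WT libraries, so that KO was below WT; of all coding genes 1.92% and 1.26% were.

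The log2 differences in region signal that turned were as follows. Without centring Tbx2 was 0.28, Tbx3 0.65 and Tbx4 0.38, but the median of all regions was then 0.66, and relative to it they were -0.37, -0.0120 and -0.28, so the scaling alone changed the sign. For the others the cause was not tested. For mean signal per base Tbx1 was -0.14, Tbx4 0.12, Tbx18 -0.10 and Tbx20 -0.0796. For maximum signal Tbx1 was -0.20 and Tbx18 -0.19. Tbx1 was also -0.0096 with nearby peaks joined and -0.43 in replicates 1 and 2 only, and Tbx3 was 0.19 at regions called in at least 3 libraries. For covered length centred on the library median, Eomes was -0.33, Tbx1 -0.43, Tbx2 -0.65, Tbx3 -0.66, Tbx4 -0.81, Tbx5 -0.24, Tbx18 -0.0822 and Tbx20 -0.0657, and the median of all windows moved from 0.51 to -0.34, so that each member kept its distance from it. In replicates 1 and 2 only, Tbx1 was -0.33, Tbx2 -0.0628, Tbx3 -0.0265, Tbx4 -0.20 and Tbx5 -0.36.

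Without single libraries the number of members called in all 3 WT libraries, or the 2 left, was 8 to 10, in all KO libraries 10 to 10 and in any library 10 to 10, and 0 to 0 regions and 0 to 0 windows passed. Region signal then ran from -0.16 to 0.28 at Eomes, -0.36 to 0.23 at Tbx1, -0.53 to -0.20 at Tbx2, -0.71 to 0.68 at Tbx3, -0.43 to -0.0539 at Tbx4, -1.52 to 0.00051 at Tbx15, 0.0168 to 0.31 at Tbx18 and 0.24 to 0.81 at Tbx20. Covered length ran from 0.00595 to 1.97 at T, -0.13 to 0.89 at Eomes, -0.53 to 0.90 at Tbx1, -0.0880 to 0.40 at Tbx2, -0.87 to 1.04 at Tbx3, -0.63 to 0.47 at Tbx4, -1.19 to 1.60 at Tbx5, -1.26 to 0.66 at Tbx15, 0.44 to 1.15 at Tbx18 and 0.0337 to 1.21 at Tbx20. With 1047 to 6013 peaks a library, a missing peak may be one too weak for the library.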
